A study of Homo sapiens with 4 samples.

Results

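Aminoacyl-tRNA synthetases were followed as a gene family through an RNA-sequencing comparison of NUDUL1 lymphoma cells. The members were 36 genes of the 25066 in the normalized table, found by exact match of their symbols in the older form that the table uses (AARS for AARS1, for example). Of these, 20 encode the cytosolic enzymes, and 16 encode the mitochondrial enzymes, whose symbols end in 2. All 36 were measured in every library and passed the filter on low values (a value above 0 in at least 2 of the 4 libraries).

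Each synthetase joins an amino acid to its matching tRNA, the step that sets which residue a codon will add to a protein. Human cells carry separate nuclear genes for charging in the cytosol and in the mitochondrion. GARS and KARS are exceptions, since each gives rise to enzyme forms for both compartments, and mitochondria charge glutamine by an indirect route. EPRS joins a glutamyl- and a prolyl-tRNA synthetase in a single chain, and FARSA and FARSB are the subunits of the cytosolic phenylalanine enzyme. Several cytosolic enzymes are held together in the multisynthetase complex by the scaffold proteins AIMP1, AIMP2 and EEF1E1. Many cytosolic synthetase genes are known to be induced through the transcription factor ATF4 when amino acids run short, and WARS is known as an interferon gamma-induced gene.

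NUDUL1 is a human diffuse large B cell lymphoma line of the germinal center type. The cells were derived from a single-cell clone with doxycycline-inducible Cas9 and were transduced with Tbxa2r, a thromboxane receptor that couples to Gα13, the product of GNA13. Cells with a control sgRNA (Control) and cells with a GNA13 sgRNA (GNA13-deficient) were compared, with 1 sgRNA per genotype and 2 libraries of each. All 4 libraries came from cells exposed for 24 h to 10 nM U46619, a stable thromboxane A2 mimetic, so the comparison was between genotypes under stimulation of the receptor and included no untreated cells. The labels call the libraries duplicates and do not say that the cultures were separate, so p values measure the spread between these libraries only, which may be technical.

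The libraries held between 29209544 and 31537955 mapped reads, and the members were counted with 292 to 16854 reads per library. The log2 values of GNA13 itself were 12.46 and 12.45 in Control and 13.10 and 13.11 in the other genotype. Since the mRNA of the targeted gene was not lower there, the libraries are named by their labels throughout, and the directions rest on those labels. The 10 markers of germinal center B cells read as a check were all detected, at summed linear values of 84238 to 86759 in Control and 81553 to 84628 in libraries labelled GNA13-deficient. The defining T cell genes CD3D, CD3E and CD3G, the myeloid genes FCGR3A and S100A8 and the epithelial and stromal genes KRT8, KRT18, COL1A2 and DCN were at 0 or not above 0 in 2 libraries. Of 2 T cell markers tested both were lower under the GNA13 sgRNA, and of 4 myeloid markers 2 were lower. Summed linear values were 122 to 177 in Control against 5.38 to 13.3 for the T cell list, 228 to 242 against 26.9 to 27.7 for the myeloid list and 45.8 to 49.2 against 107 to 113 for the epithelial and stromal list, where EPCAM was higher. These sums are small beside those of the synthetases, and their part in the results below was not tested. All libraries came from the NUDUL1 line, derived from a single-cell clone, so these values are not read as numbers of T, myeloid or epithelial cells. In bulk RNA, fewer cells expressing a gene and less RNA of it per cell cannot be told apart.

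Synthetase mRNAs moved in both directions between the genotypes. With limma on the log2 values and a Benjamini-Hochberg adjusted p below 0.05, 8 of 36 members rose in the libraries labelled GNA13-deficient, 5 fell and 23 did not pass. That is 36.1% of the members, against 29.7% of all genes tested and 39.0% of genes at or above the median level. The share called higher was 22.2% for the members, against 13.1% of all genes and 21.3% of genes at or above the median level, and the share called lower was 13.9% against 16.6% and 17.7%. Taken as a whole family, the synthetases were therefore called at a rate close to that of other well-expressed genes.

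The cytosolic and mitochondrial enzymes divided differently. Of the 20 cytosolic genes, 6 were called higher, 2 lower and 12 neither (40% called), and 15 had a difference above 0. Of the 16 mitochondrial genes, 2 were called higher, 3 lower and 11 neither (31.25% called), and 8 had a difference above 0. The median log2 difference (GNA13-deficient minus Control) was 0.19 for the cytosolic genes and -0.0025 for the mitochondrial genes, beside -0.02 for all genes tested and 0.03 for genes at or above the median level. The distance between these class medians of differences was 0.19, and it has no SD of its own across libraries. A different quantity, the gap between the class medians of log2 level in each library, had an SD of 0.03 within genotypes. The distance of 0.19 depended on the scaling of the libraries. It was 0.06 after quantile normalization, which placed the cytosolic median at 0.05, below the median of all genes at 0.07. With each library centred on its median gene it stayed at 0.19, but the medians were then 0.40 and 0.21 over a median of all genes of 0.16, which had itself moved by 0.19, and the share of all calls that were higher went from 44.03% to 69.0%. No test was run over a class, because the members were chosen with results known, and 2 against 2 libraries cannot give an exact two-sided permutation p below 0.333.

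**Figure D1:**
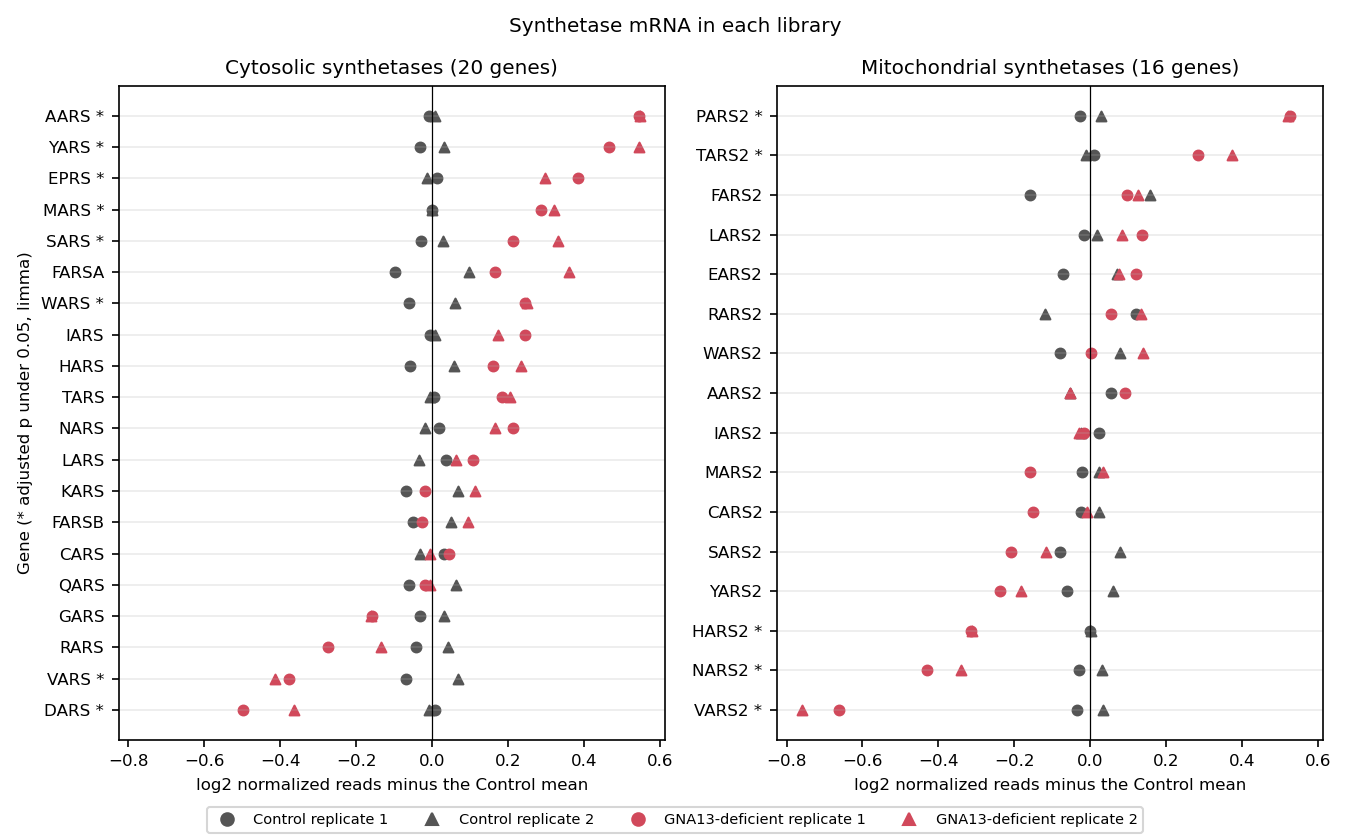
Log2 normalized reads of each synthetase in each library, minus the mean of the Control libraries (x axis), with 1 row per gene, cytosolic genes at left and mitochondrial genes at right, sorted by the difference. Grey symbols are Control and red symbols are libraries labelled GNA13-deficient, and an asterisk marks an adjusted p below 0.05 from limma. Red symbols lie to the right of grey ones in 12 of the 20 cytosolic rows and 4 of the 16 mitochondrial rows.

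The red and grey symbols did not overlap for 25 of the 36 genes, while 65.3% of all genes tested did not overlap between genotypes. Among cytosolic genes, 12 were higher in both libraries labelled GNA13-deficient than in both Control libraries (60%, against 31.3% of all genes tested), 4 were lower in both (20%, against 34.0%) and 4 overlapped. Among mitochondrial genes, 4 were higher in both (25.0%), 5 were lower in both (31.25%) and 7 overlapped. No share without overlap was computed for genes at or above the median level, where the share called higher was 21.3%, against 13.1% of all genes. Averaged over the 20 cytosolic genes, the deviation from the Control mean was 0.09 and 0.13 in the libraries labelled GNA13-deficient, and -0.03 and 0.03 in Control. Over the 16 mitochondrial genes it was -0.05 and -0.02 in the libraries labelled GNA13-deficient and -0.02 and 0.02 in Control. The gap between the averages of the classes was 0.15 in each library labelled GNA13-deficient.

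The same pattern held for the amount of message. Summed on the linear scale, normalized reads of the cytosolic enzymes were 152327 ± 3150 (SD, n = 2) in Control and 168269 ± 1541 (n = 2) in the libraries labelled GNA13-deficient, 10.5% more. The mitochondrial enzymes summed to 23488 ± 222 (n = 2) and 23026 ± 407 (n = 2), a change of -1.97% that was close in size to the SD of the libraries.

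Levels between genes can be compared only per length of transcript, and are given here as linear normalized reads per kb of the canonical GENCODE transcript. The cytosolic enzymes had a median of 2453 in Control, with a range from 537 to 5931, and the mitochondrial enzymes a median of 453, with a range from 129 to 1209. QARS was the most abundant member at 5931 ± 360 (SD, n = 2), followed by KARS at 5142 ± 342 and GARS at 4752 ± 149. KARS and GARS overlapped within 1 SD, and QARS lay just above both. IARS2 was the most abundant mitochondrial enzyme at 1209 ± 28.4, close to WARS of the cytosol at 1150 ± 68.2 and above CARS at 716 ± 22.1 and FARSB at 537 ± 26.1. The low value of FARSB goes with a canonical transcript of 6761 bases, against 1811 bases for its partner subunit FARSA, which stood at 3277 ± 316. PARS2 at 129 ± 3.53 and WARS2 at 150 ± 11.7 were the lowest members. In all genes tested, the log2 level of the cytosolic genes lay between percentiles 81.0 and 98.4 and that of the mitochondrial genes between percentiles 52.9 and 91.7, with no correction for length.

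**Figure D2:**
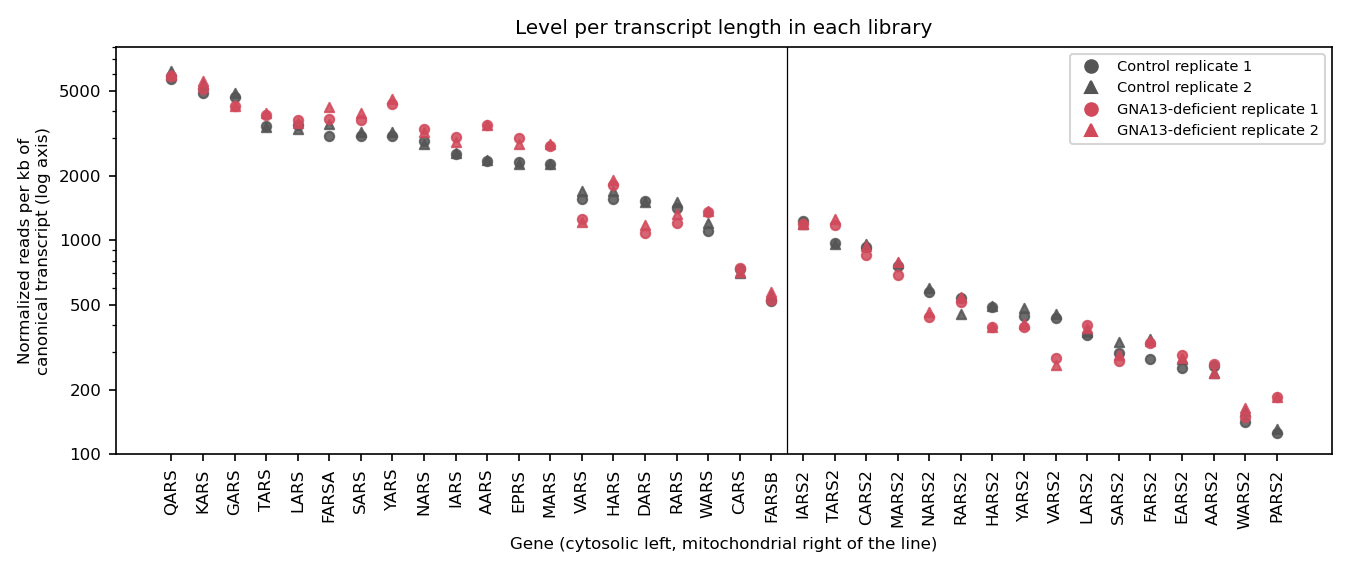
Normalized reads per kb of canonical transcript (log axis) of each synthetase in the 4 libraries, cytosolic genes to the left of the line and mitochondrial genes to the right, each sorted by its Control level. Cytosolic genes run from 5931 (QARS) to 537 (FARSB) in Control and mitochondrial genes from 1209 (IARS2) to 129 (PARS2).

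Alanine and tyrosine enzymes showed the largest rises in the cytosol. AARS, the alanyl-tRNA synthetase (Entrez 16, on the minus strand of chromosome 16, 70285886 to 70323610, hg19), had log2 values of 12.98 and 12.99 in Control and 13.53 in both libraries labelled GNA13-deficient. The genotypes were far apart relative to the spread within them, with a log2 difference of 0.55 (SE 0.05, adjusted p = 0.00335, limma), 46.0% more message. YARS, the tyrosyl-tRNA synthetase (chromosome 1, 33240838 to 33283632), stood at 12.87 and 12.93 in Control and at 13.37 and 13.45 in the libraries labelled GNA13-deficient. Its log2 difference was 0.51 (SE 0.06, adjusted p = 0.00575, limma), or 42.0% more. Both calls held under every alternative other than the removal of a library, which left no gene of the table called.

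EPRS, which charges both glutamate and proline, rose from 13.46 and 13.43 to 13.83 and 13.74, a log2 difference of 0.34 (SE 0.06, adjusted p = 0.0173, limma). MARS, which supplies methionine for initiation as well as elongation, was at 12.62 in both Control libraries and at 12.91 and 12.95 in the others, a difference of 0.30 (SE 0.05, adjusted p = 0.0139). SARS, the seryl enzyme whose tRNAs also serve selenocysteine, stood at 12.52 and 12.58 against 12.76 and 12.88, a difference of 0.27 (SE 0.07, adjusted p = 0.0353). WARS, the tryptophan enzyme, stood at 11.51 and 11.63 against 11.81 and 11.82, a difference of 0.25 (SE 0.06, adjusted p = 0.0403). The genotypes did not overlap for any of these genes, and the rises ran from 18.7% for WARS to 26.8% for EPRS. The calls of EPRS, SARS and WARS were lost under quantile normalization, at differences of 0.17, 0.15 and 0.19, and that of WARS also with voom weights on the recovered reads (0.20, adjusted p = 0.0531).

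The aspartate and valine enzymes went the other way. DARS, the aspartyl enzyme, had log2 values of 12.21 and 12.19 in Control, against 11.70 and 11.84 in the libraries labelled GNA13-deficient, and fell by 0.43 (SE 0.07, adjusted p = 0.0101, limma). VARS, the valyl enzyme encoded in the major histocompatibility complex region of chromosome 6 (31745295 to 31763529), was at 12.64 and 12.78 in Control and 12.33 and 12.30 in the others, and fell by 0.40 (SE 0.07, adjusted p = 0.0138). These amount to a change of -25.8% for DARS and -24.0% for VARS. With each library centred on its median gene the differences were -0.22 and -0.19 and neither call was kept, but the sign did not turn under any alternative.

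The 12 cytosolic genes that did not pass had differences from -0.20 to 0.26. FARSA, a subunit of the phenylalanine enzyme, had the largest, from 12.43 and 12.63 in Control to 12.70 and 12.89, a difference of 0.26 (SE 0.10, adjusted p = 0.118, limma), with wide spread in both genotypes. IARS, the isoleucine enzyme, stood at 13.48 and 13.49 against 13.73 and 13.66 (difference 0.21, adjusted p = 0.0573). HARS differed by 0.20, TARS and NARS by 0.19 each, LARS by 0.08, KARS by 0.05, FARSB by 0.03, CARS by 0.02 and QARS by -0.01. GARS and RARS differed by -0.16 and -0.20. FARSA and FARSB, whose products form a single enzyme, thus differed by 0.26 and 0.03, with an overlap between genotypes for FARSB only. For HARS, TARS, NARS and IARS the libraries of the genotypes were apart although the test was missed, with adjusted p values of 0.0826, 0.0519, 0.0615 and 0.0573 (limma). FARSA and LARS were apart in the same direction. GARS and RARS were apart in the other direction, with adjusted p values of 0.103 and 0.0935.

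Enzymes of the multisynthetase complex included genes that rose and a gene that fell. Among its 8 enzyme genes (DARS, EPRS, IARS, KARS, LARS, MARS, QARS and RARS), 2 were called higher and 1 lower (37.5% called), with a median difference of 0.07. Among the 12 cytosolic genes outside it, 4 were called higher and 1 lower (41.7% called), with a median of 0.20. Both shares were near the 39.0% of genes at or above the median level, while 29.7% of all genes were called. The 3 scaffold genes also split. AIMP2, listed as JTV1, had log2 values of 10.95 and 11.13 in Control, against 10.23 and 10.44 in the libraries labelled GNA13-deficient and fell by 0.71 (SE 0.10, adjusted p = 0.00905, limma). EEF1E1, which docks MARS in the complex, rose from 10.38 and 10.48 to 10.73 and 10.81, a difference of 0.34 (adjusted p = 0.0209). AIMP1, listed as SCYE1, differed by -0.06 and its genotypes overlapped.

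Among the mitochondrial enzymes, VARS2 had the largest difference of any member. This second valyl enzyme lies in the same region of chromosome 6 as VARS (30881982 to 30894236, plus strand). Its log2 values were 10.60 and 10.66 in Control, against 9.97 and 9.87 in the libraries labelled GNA13-deficient, a fall of 0.71 (SE 0.07, adjusted p = 0.00306, limma), or -38.9%. NARS2, the mitochondrial asparagine enzyme, stood at 10.49 and 10.55 against 10.09 and 10.18 and fell by 0.38 (SE 0.06, adjusted p = 0.0133). HARS2, the mitochondrial histidine enzyme, had nearly equal replicates, at 10.24 in each Control library and 9.93 in each of the others, and fell by 0.31 (SE 0.06, adjusted p = 0.0165). After centring, the falls of NARS2 and HARS2 were -0.18 and -0.10 and did not pass, while VARS2 stayed called at -0.50.

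PARS2 and TARS2 were the mitochondrial genes that rose. PARS2, the proline enzyme and the member with the fewest reads (292 to 425 per library), was at 8.22 and 8.27 in Control, against 8.77 and 8.76 in the libraries labelled GNA13-deficient, a difference of 0.52 (SE 0.09, adjusted p = 0.0135, limma). TARS2, the threonine enzyme, was at 11.37 and 11.35 against 11.65 and 11.74, a difference of 0.33 (SE 0.06, adjusted p = 0.0148). In both genes the libraries of the genotypes were well separated, by 43.7% and 25.5% of the Control level.

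The 11 mitochondrial genes that did not pass had differences from -0.21 to 0.11. YARS2, the tyrosine enzyme, had the largest, from 9.87 and 9.99 in Control to 9.70 and 9.75, a difference of -0.21 (adjusted p = 0.0920, limma) without overlap. SARS2 differed by -0.16, CARS2 by -0.08, MARS2 by -0.06 and IARS2 by -0.02. AARS2 differed by 0.02, WARS2 by 0.07, RARS2 by 0.09, EARS2 by 0.10, and LARS2 and FARS2 by 0.11 each. AARS2 had a 95% interval from -0.19 to 0.23, so that a change of the size seen for AARS lay outside it. IARS2, the best expressed of the class, had an interval from -0.16 to 0.11.

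Setting the cytosolic beside the mitochondrial enzyme for the same amino acid gave 17 pairings over 16 amino acids, with EPRS and FARS2 each used in more than 1. The cytosolic difference was above the mitochondrial one in 12 pairings and below it in 5, and the median of the gaps was 0.23. The cytosolic to mitochondrial log2 ratio did not overlap between genotypes in 14 pairings, and it was higher in the libraries labelled GNA13-deficient in 11 of these. No share was computed for ratios of other gene pairs, and 65.3% of single genes tested did not overlap, so the count has no direct reference. Since both enzymes are read in the same library, a scaling factor common to all its genes cancels in the ratio. A shift that depends on level does not cancel, and the classes differed in level. Their median percentiles among all genes tested were 95.9 (cytosolic) and 72.1 (mitochondrial), so compartment and level cannot be told apart here.

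**Figure D3:**
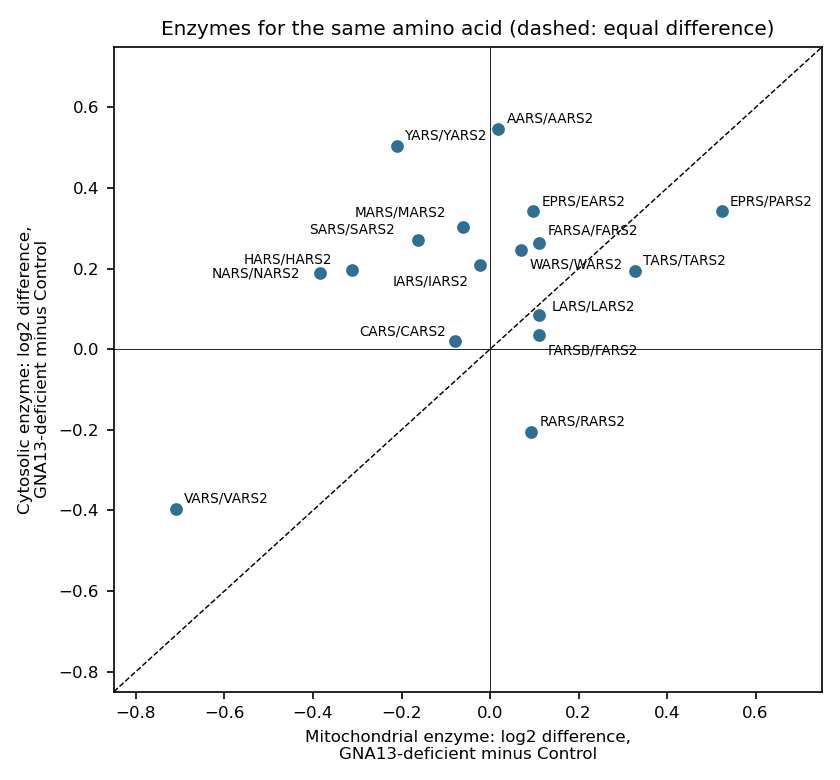
Log2 difference (GNA13-deficient minus Control) of the cytosolic enzyme (y axis) against that of the mitochondrial enzyme for the same amino acid (x axis), 1 point for each of 17 pairings. Points above the dashed line, 12 of them, have the larger difference in the cytosolic enzyme, and VARS/VARS2 lies at the lower left with both enzymes down.

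Tyrosine had the widest gap. The log2 ratio of YARS to YARS2 was 2.998 and 2.942 in Control, against 3.67 and 3.70 in the libraries labelled GNA13-deficient, a shift of 0.72, which took the ratio per kb from 6.79 to 11.2. Asparagine (NARS and NARS2) shifted by 0.57, alanine (AARS and AARS2) by 0.53, histidine (HARS and HARS2) by 0.51 and serine (SARS and SARS2) by 0.44. For tyrosine, alanine and serine the called gene was the cytosolic one, whereas for asparagine and histidine it was the mitochondrial one. Valine was the only amino acid for which both enzymes were called lower, and its ratio still shifted by 0.31, since VARS2 had the larger fall. Proline was the only amino acid for which both were called higher, with EPRS at 0.34, PARS2 at 0.52 and a shift of -0.18. Threonine shifted by -0.13, with TARS2 called and TARS at an adjusted p of 0.0519 (limma). Arginine had the most negative shift, -0.30, from RARS at -0.20 and RARS2 at 0.09, neither of them called. Cysteine was the 1 amino acid with more mitochondrial than cytosolic message per kb in Control (ratio 0.761), and its ratio overlapped between genotypes.

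Histidine enzymes showed this divergence from neighbouring promoters. HARS and HARS2 are transcribed away from each other on chromosome 5, with GENCODE start sites 85 bases apart on GRCh37, the same build as hg19. HARS had log2 values of 11.57 and 11.69 in Control, against 11.79 and 11.86 in the libraries labelled GNA13-deficient, whereas HARS2 fell from 10.24 to 9.93. The log2 ratio of HARS to HARS2 was 1.33 and 1.45 in Control and 1.86 and 1.94 in the others, with no overlap. The 84 bases between the RefSeq starts hold 2 copies of the ETS-family core CCGGAAGT, on opposite strands, close to each start. Both ends of this interval are shown because they are shared by a gene that fell and a gene that did not, read on the plus strand 5′ to 3′ with the core in capitals, at chr5:140070956-140070985 beside the HARS start and chr5:140071010-140071039 beside the HARS2 start.
HARS side: gACTTCCGGctatcgagtcgctgggtcgca
HARS2 side: caaaaattatttccggctcctcCCGGAAGT
Annotated exons of HARS and HARS2 overlap by 108 bases on opposite strands, and exons of HARS overlap 1090 bases of WDR55, which differed by 0.33 (adjusted p = 0.0130, limma). The kit marks strand, but the strand setting of the counting is not given in the sources used here, so reads of such overlaps cannot be told apart.

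The promoters of the family were searched for the letters of known motifs in the 250 bases before the RefSeq start, on both strands. RefSeq sequences of GRCh38.p14 were matched by Entrez ID for 30 of the 36 members, 16 cytosolic and 14 mitochondrial. The CEBP-ATF composite element TGATGNAA, the kind of site through which ATF4 acts in amino acid response genes, was found in 3 members, namely AARS, IARS and YARS2, and in 3.19% of 27305 promoters of the same length. The windows around it are shown with the element in capitals, since they belong to the member with the largest rise, to a member that narrowly missed the test and to one whose difference was negative. Each is printed 5′ to 3′ on the strand of its gene, the minus strand in all 3, placed on GRCh37 by exact match at chr16:70323578-70323607 for AARS, chr9:95055980-95056009 for IARS and chr12:32909010-32909039 for YARS2.
AARS: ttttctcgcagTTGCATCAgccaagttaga
IARS: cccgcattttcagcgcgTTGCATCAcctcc
YARS2: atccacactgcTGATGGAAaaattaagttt
The same element thus lay before genes with log2 differences of 0.55, 0.21 and -0.21. It was in reverse orientation in AARS and IARS, where the capitals read identically, and in forward orientation in YARS2. The ETS core CCGGAAGT was found in 7 of the 30 (3.64% of all promoters), 4 cytosolic and 3 mitochondrial. The E-box CACGTG was found in 3 (6.49%), the palindromic NRF1 element in MARS2 alone (1.13%) and the cAMP response element TGACGTCA in none (1.77%). None of the matches overlapped a match to another motif. A match is a description of letters, not of binding.

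Other divergent neighbours gave mixed results. YARS starts 295 bases from S100PBP, and S100PBP rose with it, from 10.39 and 10.36 to 11.09 in both libraries labelled GNA13-deficient, a difference of 0.71 (adjusted p = 0.00199, limma). Their annotated exons overlap by 396 bases on opposite strands. RARS2 starts 148 bases from ORC3L and FARS2 starts 563 bases from LYRM4, which differed by 0.41 (adjusted p = 0.0103) and -0.49 (adjusted p = 0.0204), while neither synthetase passed the test. KARS with TERF2IP, EARS2 with UBFD1 and SARS2 with MRPS12 contained no called gene. Exons of MARS overlap those of ARHGAP9 by 519 bases and of DDIT3 by 355 bases on the opposite strand. Those neighbours differed by -0.68 (adjusted p = 0.0141) and -0.49 (adjusted p = 0.0764), opposite in sign to MARS. VARS2 shares 4073 exonic bases with a long noncoding RNA of the same strand, from which its reads cannot be told apart, and SARS2 shares 1492 with an overlapping coding gene. The annotation names pseudogenes for 11 members, AARS, WARS and TARS2 among those called, and their counts are uncertain to the extent that reads are shared with these copies.

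Genes that act with the synthetases were read from lists by their roles. For charging in mitochondria by other routes, 1 of 5 genes passed (20%, against 29.7% of all genes tested). QRSL1, the catalytic subunit of the amidotransferase that makes glutaminyl-tRNA there, fell from 10.74 and 10.73 to 10.20 and 10.30, by 0.48 (adjusted p = 0.00682, limma). TUFM, which delivers charged tRNA to the mitochondrial ribosome, differed by 0.29 (adjusted p = 0.0514). Selenocysteine is built on a serine that SARS has charged. Of 6 genes for it, 1 was lower at an unadjusted p under 0.05 only, and 2 were higher and none lower by limma (33.3% called). These were EEFSEC, the elongation factor for selenocysteine, from 10.07 and 10.27 to 10.69 and 10.64 (difference 0.50, adjusted p = 0.0145), and SEPHS1, from 11.82 and 11.88 to 12.26 and 12.31 (difference 0.43, adjusted p = 0.00634). Of 5 editing and synthetase-like genes, 1 was higher and 2 lower (60% called). DTD1, a deacylase that removes D-amino acids from tRNA, rose by 0.29 (adjusted p = 0.0200), and DTD2, listed as C14orf126, fell by 0.64 (adjusted p = 0.00352). The other call was a pseudogene, NCRNA00117, with log2 values of 2.83 and 2.78 in Control and below the level of 3 reads in the other libraries.

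Genes for the processing and export of tRNA were read next. Of 24, 9 were higher and none lower by limma (37.5% called, against 29.7% of all genes and 39.0% of genes at or above the median level), with a median difference of 0.16, and 1 was lower at an unadjusted p under 0.05 or with voom weights. The 3 largest were RPP25 of ribonuclease P (7.97 and 8.28 against 8.57 and 8.82, difference 0.57, adjusted p = 0.0495, limma), TSEN54 of the tRNA splicing endonuclease (9.21 and 9.40 against 9.83 and 9.88, difference 0.55, adjusted p = 0.0117) and LAGE3 of the KEOPS modification complex (9.09 and 9.24 against 9.62 and 9.75, difference 0.53, adjusted p = 0.0149). This list, which holds no synthetase, was called higher in 15 genes after centring and in 9 after quantile normalization, but in 1 with no filter on low values and in 0 with no variance trend. Of 76 mitochondrial ribosomal proteins, which work downstream of the mitochondrial enzymes, 19 were higher and 3 lower (28.9% called), with a median of 0.15. Of 62 translation factors tested, 10 were higher and 11 lower (33.9% called), with a median of 0.11. Both shares were close to that of all genes.

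The genes of the amino acid response moved in both directions too. Of 30 tested, none of them a synthetase, 11 were higher and 5 lower (53.3% called), with a median of 0.22. Of all genes, 29.7% were called, 13.1% higher and 16.6% lower. Of genes at or above the median level, 39.0% were called, 21.3% higher and 17.7% lower. With no filter on low values, or with no variance trend, 3 genes of the list were higher and 2 lower. PHGDH, the entry enzyme of serine synthesis, rose from 12.06 and 12.21 to 12.98 and 13.07, by 0.89 (SE 0.07, adjusted p = 0.00238, limma). ALDH1L2, a mitochondrial folate enzyme, fell from 6.05 and 5.95 to 2.36 and 2.91, by 3.36 (SE 0.36, adjusted p = 0.00400). CBS, of homocysteine breakdown, fell from 7.11 and 7.31 to 3.85 and 4.11, by 3.24 (SE 0.25, adjusted p = 0.00218). The amino acid response thus held changes of either sign, and of a size not seen among the synthetases. Singled out here after their values were seen, ATF4 differed by 0.24 (adjusted p = 0.0709) and ASNS, a classical target of ATF4, by -0.10 (adjusted p = 0.294). Neither gene stands for the list, in which 11 were called higher and 5 lower.

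For the interferon gamma genes, which were read beside WARS, 2 of 13 tested were higher and 3 lower, with a median of -0.15. That is 38.5% called, against 29.7% of all genes and 39.0% of genes at or above the median level. GBP1 rose from 8.34 and 8.32 to 9.57 in both libraries labelled GNA13-deficient (difference 1.24, adjusted p = 0.00151, limma), and GBP4 fell from 8.48 and 8.50 to 7.37 and 7.31 (difference -1.15, adjusted p = 0.002996). GBP2 was at 1.02 and 0.00 in Control, under the level of 3 reads, and at 2.62 and 2.91 in the others. The rise of WARS therefore stood beside guanylate-binding proteins that moved in opposite directions.

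**Figure D4:**
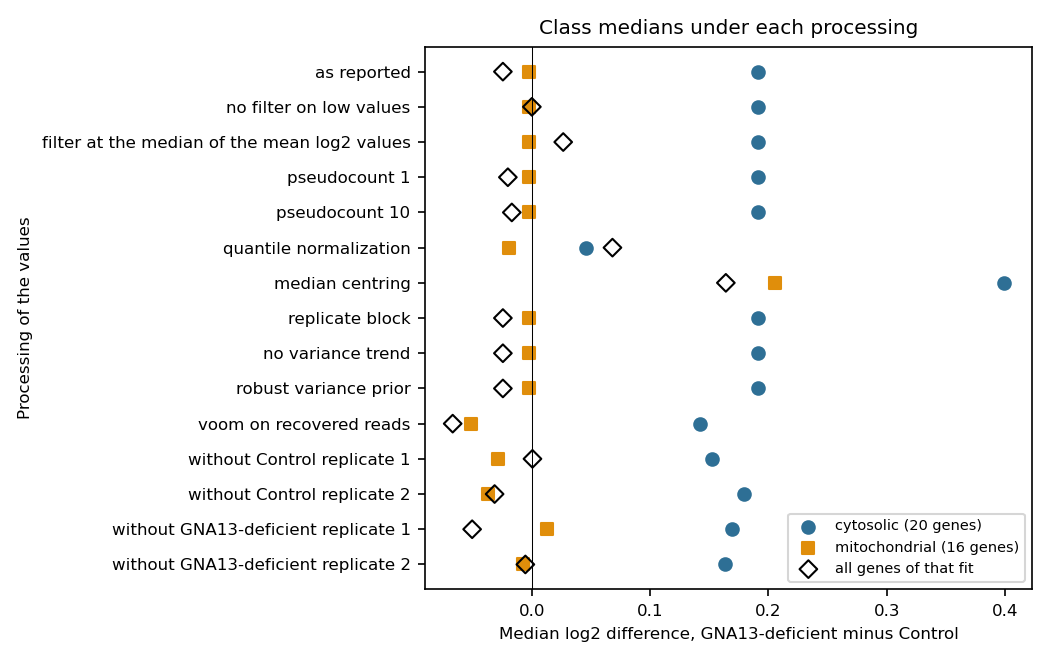
Median log2 difference (x axis) of the cytosolic genes (circles), the mitochondrial genes (squares) and all genes in each fit (open diamonds) under each way of processing the values (rows). The cytosolic median lies between 0.14 and 0.19 except at 0.05 after quantile normalization and 0.40 after median centring, and it is to the right of the mitochondrial median in every row.

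The plot of class medians shows how far the class contrast depends on scale. The cytosolic median stayed above the mitochondrial one under every processing, leaving out any library included, where it was 0.16 to 0.22 higher. Quantile normalization brought it below the median of all genes, and EPRS, SARS and WARS then lost their calls while GARS and RARS were called lower, so that 3 cytosolic genes were higher and 4 lower. AARS, YARS and MARS kept their calls under that scaling, centring and voom weights alike. With no filter on low values, DARS, EPRS, SARS, VARS, WARS, NARS2 and TARS2 lost their calls (limma adjusted p from 0.0634 to 0.134), and with no variance trend MARS and HARS2 lost theirs as well (0.0846 and 0.0787). AARS, YARS, PARS2 and VARS2 kept theirs in both cases.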

How the data were processed

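RNA was measured in 4 libraries of U46619-treated NUDUL1 cells, 2 Control and 2 GNA13-deficient. The authors prepared libraries with the TruSeq Stranded mRNA kit, used STAR for alignment to hg19 and deposited log2 values of normalized reads per gene, with the total of mapped reads in linear units as the first row. HTSeq is named in the submitters' processing notes, and the normalization method, the annotation and the tool versions are not given in the sources used here. The read length is stated differently in the methods and the labels. The deposited values (of the type other in the record of units) step in whole reads. Between 99.9% and 100% of values up to 400 reads came out whole within a tolerance. It was 0.005 reads plus the rounding of the log2 values to 3 decimals, which grows with the number of reads. The recovered reads served for depth and for voom only.

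Limma (version 3.58.1, under R 4.3.3; moderated with an intensity trend in the variance, fitted on genotype alone with 2 residual degrees of freedom, no pseudocount) was run on the 16945 genes above 0 in at least 2 libraries. Benjamini-Hochberg adjustment covered these genes, with a threshold of 0.05, and the code was tested on simulated data. Members, lists and motifs were chosen with earlier results of these data known. By rule, members with an adjusted p under 0.05 and the 3 largest other differences (FARSA, YARS2 and IARS) are given by library, and of each list at most 3 called genes. The level of 3 reads was the floor. Alternatives were other filters, pseudocounts of 1 and 10, quantile normalization, median centring, a replicate block, other variance priors, voom, each library left out, and GARS and KARS left out of their class. Transcript lengths, exons and starts came from GENCODE v44 lifted to GRCh37, and promoters from RefSeq (GRCh38.p14). Protein sequences were not used here.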

Additional observations from a re-analysis of the deposited data

How the results depend on the processing

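The limits are those of 4 libraries and 2 residual degrees of freedom. Leaving out any library left 0 genes of the table called by limma, between 5257 and 5600 genes at an unadjusted p under 0.05 (7128 with all libraries), and 0 calls in each direction in both synthetase classes, the amino acid response list and the tRNA list. The 13 called members then had adjusted p values from 0.0708 to 0.209, and none of them changed sign. GNA13 was at 0.65 to 0.66 and no longer called. The class medians ranged from 0.15 to 0.18 (cytosolic) and from -0.04 to 0.01 (mitochondrial), and their distance from 0.16 to 0.22.

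Without a filter, 1999 genes were called, with 3 cytosolic genes higher and 0 lower, 1 mitochondrial gene higher, 3 amino acid response genes higher and 2 lower, and 1 tRNA gene higher. With a filter at the median level, 11 cytosolic genes were higher and 3 response genes lower. Without a variance trend, 2718 genes were called, 2 cytosolic genes were higher and 0 lower, 1 mitochondrial gene was higher and 1 lower, 3 response genes were higher and 2 lower, and 0 tRNA genes were higher. Quantile normalization gave 3 cytosolic genes higher and 4 lower, a cytosolic median of 0.0454 and a class distance of 0.0643. Centring gave 13 cytosolic genes higher and 0 lower, 4 mitochondrial genes higher and 1 lower, medians of 0.40 and 0.21, 3 response genes lower and 15 tRNA genes higher. Voom weights on the recovered reads gave 4 cytosolic genes lower, a mitochondrial median of -0.051 and 1 tRNA gene lower. The class distance by means was 0.15. The causes of these shifts were not tested. The edgeR and DESeq2 alternatives on recovered reads were not run.

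With the replicate number as a block, 6616 genes were called, among them 11 cytosolic genes higher and 4 lower, and 2 tRNA genes were lower. Same-numbered libraries deviated together (r = 0.453 across 8473 genes, which are not independent replicates), but nothing in the labels ties the numbers to a shared culture or day, so this pairing is a hint from the data only.

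Of 504 member values under 14 alternatives, 369 kept their direction and side of the threshold, 76 lost and 30 gained a call, and 29 changed sign, all of genes that were not called. After quantile normalization these were CARS at -0.0105, FARSB at -0.0271, KARS at -0.115 and LARS at -0.0744. After centring they were GARS at 0.0485, QARS at 0.20, RARS at 0.0035, CARS2 at 0.13, IARS2 at 0.18, MARS2 at 0.15 and SARS2 at 0.045. With voom they were CARS at -0.0291, FARSB at -0.0156, KARS at -0.0016 and AARS2 at -0.0297. With a library left out, FARSB ranged from -0.0275 to 0.0955, KARS from -0.02 to 0.116, FARS2 from -0.048 to 0.269, IARS2 from -0.0475 to 0.0005, WARS2 from -0.0095 to 0.1495, CARS from -0.012 to 0.051, QARS from -0.0735 to 0.0505, AARS2 from -0.054 to 0.091, RARS2 from -0.0265 to 0.2135 and MARS2 from -0.1575 to 0.0335.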
